A study of Mus musculus with 4 samples.

Results

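The p53 pathway genes described here are 30 mouse genes, given as a list of symbols that holds p53 (Trp53), its regulators and its known targets, and each was found as a single row in the table of 30282 mouse genes. The rule uses symbols and no measured value, but the list was drawn up with earlier results of these data known. Their RNA was measured by poly(A) RNA sequencing in V6.5 mouse embryonic stem cells. In them RPB3, a core subunit of RNA polymerase II encoded by Polr2c, carries GFP and mAID, a small tag that auxin turns into a degradation signal. Whether the line is 1 clone is not stated in the labels. The IAA group (2 libraries) received doxycycline at 1 µg/ml for 12 h, which induces the plant F-box protein TIR1, and then the auxin indole-3-acetic acid (IAA) at 500 µM for 12 h, after which TIR1 marks RPB3 for degradation. The untreated group (2 libraries) received the same doxycycline without IAA, so it too carries the degron and TIR1. All cells grew in serum with CHIR99021 at 3 µM, an inhibitor of GSK3, and PD0325901 at 0.5 µM, an inhibitor of MEK. A further sentence of the labels speaks of depletion for 1 h, and the difference from the 12 h given for each sample is unresolved. No cells with IAA and without the degron were analysed here, so effects of IAA itself and of RPB3 loss cannot be told apart.

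p53 is a transcription factor that damage kinases stabilise and that binds DNA as a tetramer at paired copies of a short palindromic motif, the p53 half-site. Its protein is kept low by Mdm2, a ubiquitin ligase that p53 itself induces, and its activity is masked by Mdm4, a relative of Mdm2. Induced targets halt the cell cycle, repair DNA, change metabolism or start cell death, and in mouse embryonic stem cells p53 is also known for repressing Nanog after DNA damage. The comparison asks how the RNA of these genes stood in IAA libraries against untreated libraries.

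The promoter windows of the members are shown because many hold the motif that p53 binds. RefSeq promoter windows (GRCm38.p6, from 250 bases before to 50 bases after an annotated start) were at hand for 24 of the 30 members. The p53 half-site is a palindrome, so both strands were read at once. A core of C, A or T, A or T, and G is flanked on the left by purines and on the right by pyrimidines. It was found in 13 of the 24 members (54.2%), against 8.32% of the 10717 tested genes with a window and 9.55% of all 27025 genes with one. Counted by window, 14 of 31 member windows (45.2%) and 8.36% of all 32851 windows held it. Paired half-sites with no spacer and at most 1 letter off the consensus stood in the windows of Cdkn1a and Ccng1, whose products are the cell cycle inhibitor p21 and cyclin G1, while 0.107% of all genes with a window had such a pair. These runs are printed 5′ to 3′ with the paired sites in capitals.
Cdkn1a (chr17:29090923-29090952, + strand): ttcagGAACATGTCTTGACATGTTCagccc
Ccng1 (chr11:40755457-40755486, - strand): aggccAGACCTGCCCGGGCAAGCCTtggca
In Cdkn1a the pair begins at position -51 from the more upstream of its annotated starts, and in Ccng1 it begins at position -195 from the start. The window of the more downstream start of Cdkn1a holds no half-site. The single half-sites of the other members follow, with the half-site in capitals. They are shown because the same motif stands in windows of genes that were higher, lower and not called. Trp53 and Wrap53 lie head to head and share 1 half-site, printed for Trp53. In Polk, Sesn1 and Rchy1 the half-site lies in the window of a more downstream annotated start. The window of the more upstream start of each of these genes holds none.
Aen (chr7:78895927-78895956, + strand): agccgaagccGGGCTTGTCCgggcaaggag
Ddit4l (chr3:137623572-137623601, + strand): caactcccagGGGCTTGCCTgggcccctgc
Ei24 (chr9:36797325-36797354, - strand): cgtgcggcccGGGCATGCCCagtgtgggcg
Gadd45a (chr6:67037428-67037457, - strand): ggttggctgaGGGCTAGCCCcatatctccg
Mdm2 (chr10:117710925-117710954, - strand): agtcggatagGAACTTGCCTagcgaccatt
Polk (chr13:96519399-96519428, - strand): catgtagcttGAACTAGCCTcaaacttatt
Ppm1d (chr11:85311112-85311141, + strand): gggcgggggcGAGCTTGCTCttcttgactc
Rchy1 (chr5:91962627-91962656, - strand): cactatgacaGAGCTTGTCTcctcaaggtg
Sesn1 (chr10:41887256-41887285, + strand): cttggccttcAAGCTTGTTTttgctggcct
Trp53 (chr11:69580274-69580303, + strand): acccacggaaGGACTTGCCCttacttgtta
The whole windows of the upstream starts of Cdkn1a, which rose, and of Mdm4, which was called lower, are given as examples. Other members stood the other way round. Sertad1 and Tigar were called higher and have windows without a half-site, while Ccng1 and Ddit4l were called lower and have one. Capitals mark half-sites, of which the Mdm4 window holds none.
Cdkn1a (chr17:29090729-29091028, + strand): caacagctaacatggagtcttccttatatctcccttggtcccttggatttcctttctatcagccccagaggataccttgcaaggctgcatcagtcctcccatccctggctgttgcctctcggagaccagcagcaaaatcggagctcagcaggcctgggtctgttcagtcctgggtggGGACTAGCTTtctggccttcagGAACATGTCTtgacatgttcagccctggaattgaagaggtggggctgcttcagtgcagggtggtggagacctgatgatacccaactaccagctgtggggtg
Mdm4 (chr1:133030538-133030837, - strand): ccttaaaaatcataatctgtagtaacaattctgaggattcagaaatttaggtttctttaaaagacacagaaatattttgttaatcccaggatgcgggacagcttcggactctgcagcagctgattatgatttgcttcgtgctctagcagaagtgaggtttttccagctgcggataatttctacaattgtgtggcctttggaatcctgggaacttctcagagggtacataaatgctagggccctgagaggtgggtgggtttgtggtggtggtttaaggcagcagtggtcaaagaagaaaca
A match is a description of letters and not a site of binding. TATA boxes (TATAAA) were found in 12.5% of the 24 members and 8.43% of tested genes, CCAAT boxes (CCAAT) in 41.7% and 43.4%, and GC boxes (GGGCGG) in 83.3% and 68.9%, each on both strands.

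**Figure D1:**
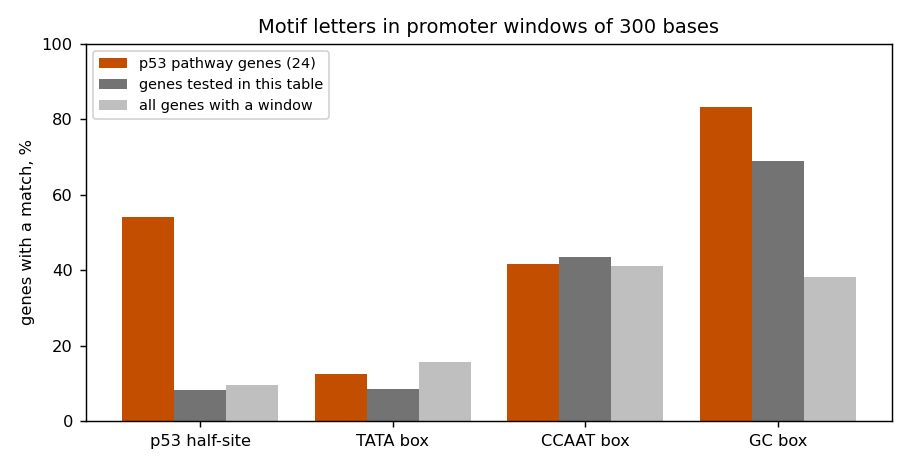
Share of genes (%) whose promoter windows of 300 bases hold each motif, for the 24 p53 pathway genes with a window (orange), for the genes tested in this table (dark grey) and for all genes with a window (light grey). The half-site bar of the pathway genes stands at 54.2%, against 8.32% for tested genes.

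The libraries held 9194432 and 8779401 recovered reads in the IAA group and 8724737 and 8794680 in the untreated group. Separate cultures are not named in the labels, so a p-value here reflects how much these libraries vary, and that variation may be technical. Polr2c mRNA had normalised read counts of 3242 and 3158 in IAA libraries, against 2726 and 2885 in untreated libraries, and an mRNA level does not show the loss of the protein. All 16 listed markers of embryonic stem cells had a mean of at least 10, with summed counts of 73402 and 70837 in IAA libraries and 70156 and 71865 in untreated libraries, led by Nanog, Esrrb and Tfcp2l1. Among these 16 markers 6 were called higher and 7 lower, where 11.1% and 28.9% of all genes tested were. The widest falls were those of Utf1 at -1.83 and Lin28a at -1.10 on the log2 scale. Klf4 at 0.52 and Klf2 at 0.43 had the widest rises. Of 16 fibroblast and feeder markers 10 were in the table and 6 had a mean of at least 10. Their summed counts were 572 and 558 in IAA libraries and 639 and 727 in untreated libraries, led by Pdgfrb, Fbn1 and Thy1. Of these 6, Thy1 and Col1a1 were called lower and none higher. Thy1 had 84 and 94 in IAA libraries and 140 and 167 in untreated libraries. Col3a1 was at 0 and 2 in IAA libraries and 1 and 0 in untreated libraries. Markers of extraembryonic and early differentiated cells summed to 1760 and 1706 in IAA libraries and 1344 and 1423 in untreated libraries, with 11 of 16 at a mean of at least 10. Of these 11, Nes and Eomes were called higher and none lower. Nes alone had 1055 and 1003 in IAA libraries and 661 and 749 in untreated libraries, while Cdx2 and Foxa2 were at 0 or 1 in every library. The part of these cells in the results below was not tested. In such bulk libraries fewer cells of a type and less RNA per cell cannot be told apart.

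The pathway did not move as a block after IAA. Of 29 members tested, 5 were higher, 9 were lower and 15 were not called (limma, adjusted p under 0.05). Over all 14928 genes tested, 11.1% were called higher and 28.9% lower, or 39.9% in either direction. The members' 17.2% higher and 31.0% lower lay near those shares, which are not matched for level. The median of mean counts was 512.5 for tested members and 230.5 for all genes tested. With a mean of at least 100, 5 of 26 members were higher and 7 lower, against 1503 and 3754 of 9727 genes. The members' median log2 fold change was -0.06, against -0.11 over all genes tested. The members took 0.327% and 0.322% of all values in IAA libraries and 0.325% and 0.330% in untreated libraries, so the groups overlapped. By libraries alone, both IAA values lay above both untreated values in 7 members and below in 14, while 22.5% and 45.6% of all genes tested did so (68.1% either way). The members called higher were Sertad1, Cdkn1a, Tigar, Tnfrsf10b and Mdm2. Those called lower were Ddit4l, Mdm4, Gadd45a, Apaf1, Zmat3, Rrm2b, Ccng1, Trp53inp1 and Trp53.

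**Figure D2:**
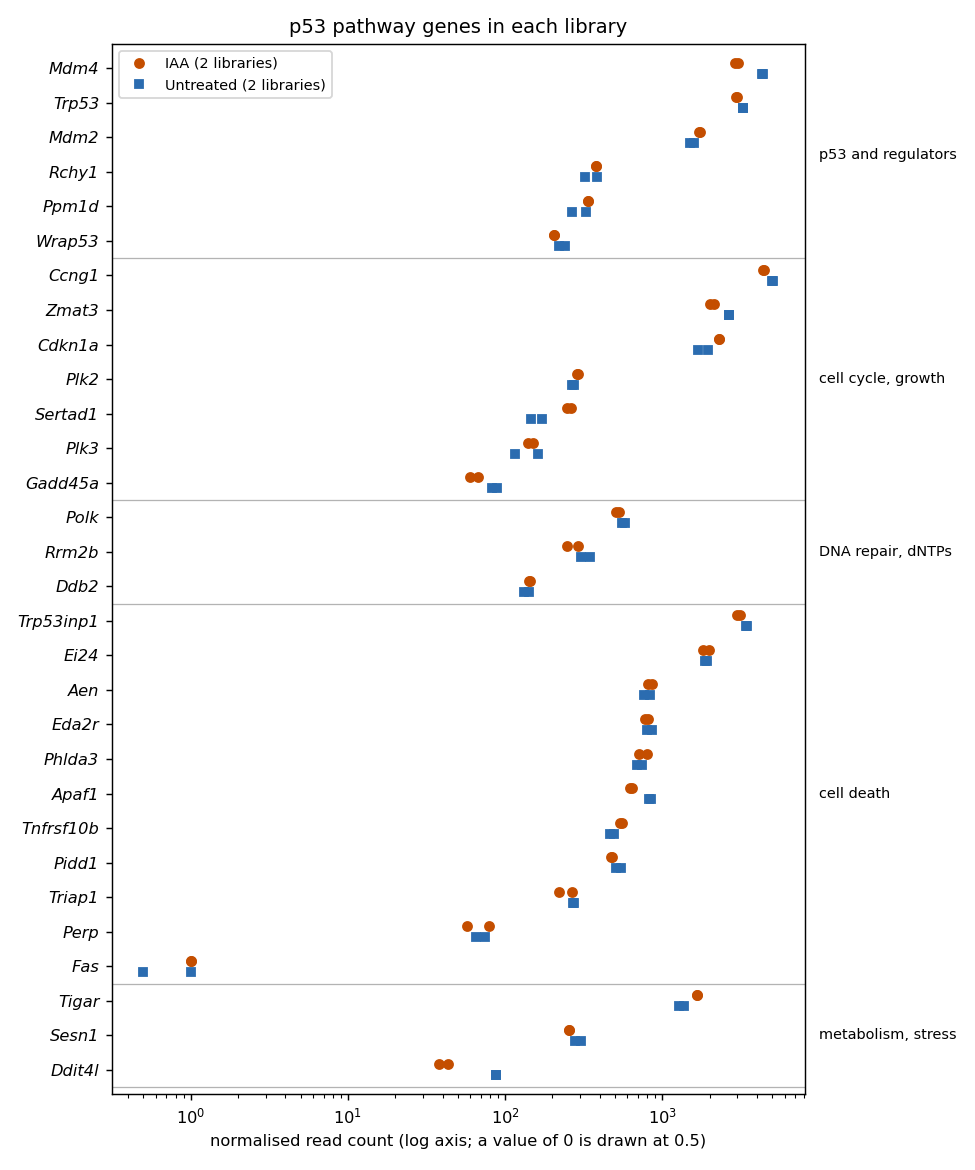
Normalised read count (log axis) of each of the 30 p53 pathway genes in the 2 IAA libraries (orange circles) and the 2 untreated libraries (blue squares), grouped by role. Mdm4, Zmat3, Apaf1 and Ddit4l sit lower in both IAA libraries and Cdkn1a, Sertad1 and Tigar higher, while Fas lies at 1 or below.

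The scale of the libraries bears on every count. Median-of-ratios factors, in place of the deposited ones, raise the median of all genes by 0.10 on the log2 scale. With those factors 8 members were higher and 5 lower, where 20.4% of all genes tested were higher and 20.5% lower (40.8% in either direction). The 5 members called higher stayed higher. Phlda3 (adjusted p = 0.0128), Aen (adjusted p = 0.0255) and Ppm1d (adjusted p = 0.00918) joined them, and Trp53, Gadd45a, Trp53inp1 and Rrm2b were no longer called. By the authors' deposited table, at an adjusted p under 0.05, members numbered 3 higher and 4 lower, where 1.90% and 7.37% of the same 14928 genes were called (9.27% in either direction). Genes without an adjusted p there were counted as not called. The authors give one for 11495 genes and for all 29 tested members, so the shares are lower than among genes that have one. The 7 members called were Cdkn1a, Sertad1 and Tigar, and Mdm4, Zmat3, Ccng1 and Apaf1. The same 7 were called in the same direction by limma at both scalings, by voom on recovered reads and without each library in turn with unrounded values. None of the 7 was called without a library with rounded values, and with no filter on low values only Mdm4 and Apaf1 of the 7 were. The authors' label of up or down, which marks adjusted p under 0.05 with a log2 fold change beyond 1 in size, is unchanged for all 30.

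**Figure D3:**
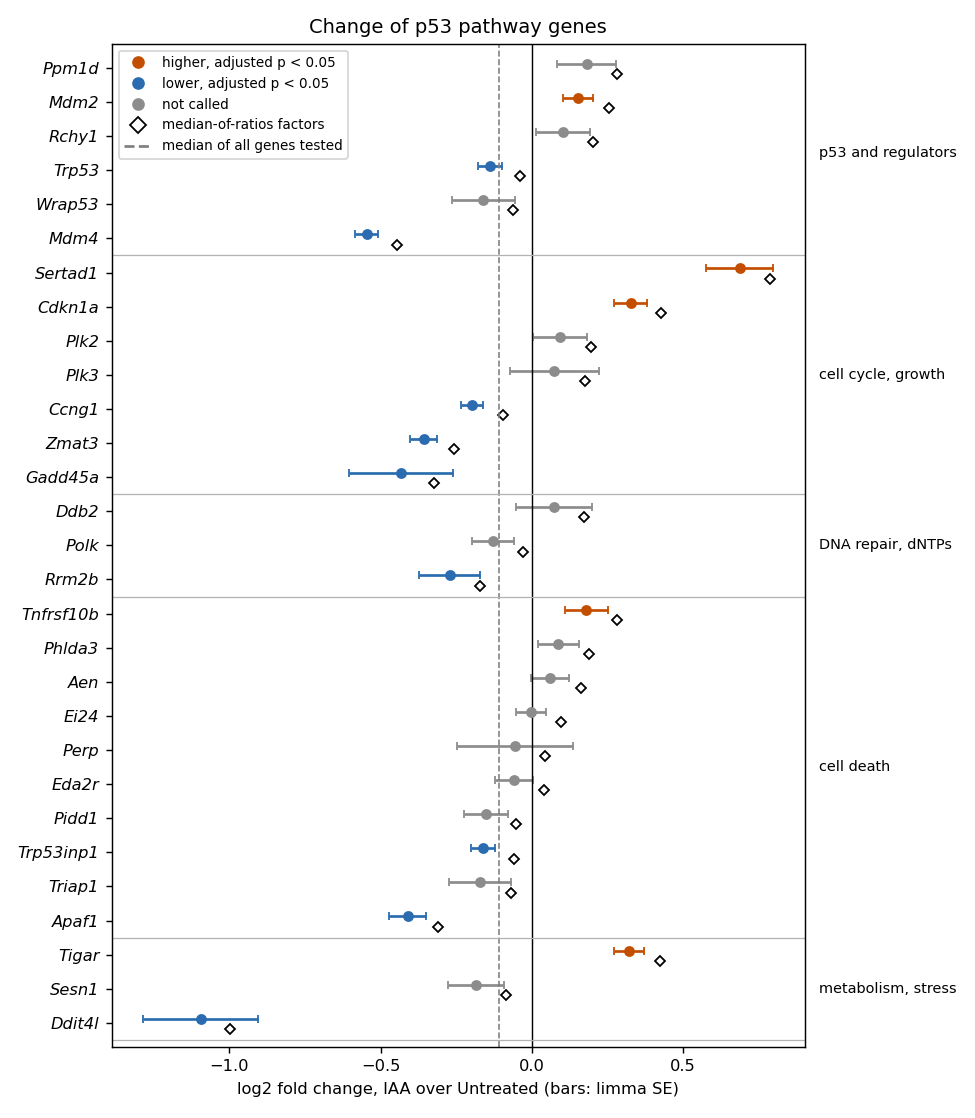
Log2 fold change of IAA over untreated for the 29 tested members, with limma standard errors at the deposited scaling (circles, orange for higher, blue for lower, grey for not called) and with median-of-ratios factors (open diamonds). The diamonds lie about 0.10 to the right of the circles, and Ddit4l at -1.10 and Sertad1 at 0.69 are the extremes.

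Among p53 and its regulators the mRNAs of the negative regulators Mdm2 and Mdm4 went in opposite directions. Mdm4 (ENSMUSG00000054387, chromosome 1, 132959484 to 133030561, GRCm38) was read at 3033 and 2900 normalised counts in IAA libraries, against 4297 and 4368 in untreated libraries. Both IAA libraries were far below both untreated ones. Mdm4 averaged 2966.5 ± 94.0 in IAA and 4332.5 ± 50.2 in untreated libraries (SD, n = 2 each), a log2 change of -0.55 (SE 0.04; limma adjusted p = 2.86e-09). Mdm2 (ENSMUSG00000020184, chromosome 10, 117688875 to 117710758) had 1709 and 1726 in IAA libraries and 1497 and 1594 in untreated libraries. The groups did not overlap, and the difference was small, 0.15 on the log2 scale (SE 0.05; limma adjusted p = 0.0171). With median-of-ratios factors it was 0.25. It was not called in the authors' deposited table (adjusted p = 0.354). With unrounded values it was also lost without IAA replicate 1 (adjusted p = 0.052), without IAA replicate 2 (adjusted p = 0.0838) and without untreated replicate 1 (adjusted p = 0.133). Trp53 itself (ENSMUSG00000059552, chromosome 11, 69580359 to 69591873) had 2927 and 2978 in IAA libraries and 3244 and 3257 in untreated libraries. It was 0.91-fold as high in IAA, or -0.14 on the log2 scale (SE 0.04; limma adjusted p = 0.00793). The median of all genes tested was -0.11. That call was lost with median-of-ratios factors (-0.04, adjusted p = 0.457) and without IAA replicate 1 (adjusted p = 0.0756, unrounded values).

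The other regulators were not called. Ppm1d, the phosphatase Wip1 that removes activating phosphates from p53, had 336 and 338 in IAA libraries against 268 and 329 in untreated libraries, a log2 change of 0.18 (SE 0.10; limma adjusted p = 0.146). Without untreated replicate 2 it was called higher (0.33, adjusted p = 0.012, unrounded values). Rchy1, the ubiquitin ligase Pirh2, had 380 and 378 in IAA libraries and 324 and 385 in untreated libraries, so the groups overlapped. Exons of Rchy1 share 18.02% of their length with Thap6 on the other strand. Wrap53, a telomerase factor whose gene starts head to head with Trp53, had 206 and 206 in IAA libraries and 220 and 241 in untreated libraries (-0.16, SE 0.10; limma adjusted p = 0.232). In GENCODE M21 the exons of Trp53 and Wrap53 share no base.

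Ratios within a library do not depend on the scaling, and the pairs given here were chosen after the values had been seen. Mdm2 over Mdm4 was 0.563 and 0.595 in IAA libraries and 0.348 and 0.365 in untreated libraries. Both IAA libraries were above both untreated ones, a difference of 0.70 on the log2 scale. Mdm2 over Trp53 was 0.584 and 0.580 in IAA libraries and 0.461 and 0.489 in untreated libraries. Mdm4 over Trp53 was 1.04 and 0.974 in IAA libraries and 1.32 and 1.34 in untreated libraries. Such differences show unequal change of the genes in a pair. Plk2 over Plk3 was 1.93 and 2.05 in IAA libraries and 2.35 and 1.64 in untreated libraries, and here the groups overlapped. A two-sided exact permutation test on 2 against 2 libraries cannot go below p = 0.333, so no ratio was tested.

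**Figure D4:**
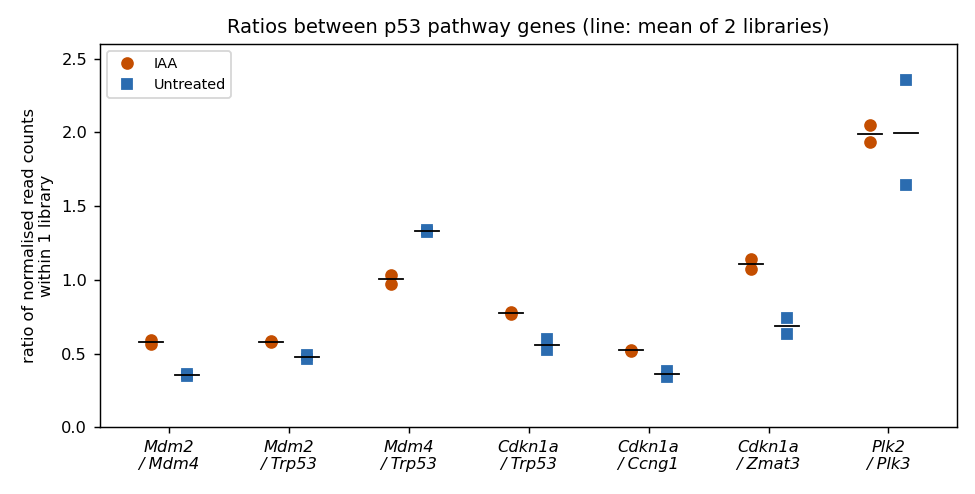
Ratios of normalised read counts between pairs of p53 pathway genes within each library, for the 2 IAA libraries (orange circles) and the 2 untreated libraries (blue squares), with black lines at the means. Mdm2 over Mdm4, Mdm2 over Trp53 and the ratios with Cdkn1a on top lie higher in both IAA libraries and Mdm4 over Trp53 lies lower, while Plk2 over Plk3 overlaps between the groups.

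Of 7 targets that act on the cell cycle and growth, 2 were higher and 3 lower, beside 11.1% and 28.9% of all genes tested. With median-of-ratios factors 2 were higher and 2 lower, beside 20.4% and 20.5%. Cdkn1a (ENSMUSG00000023067, chromosome 17, 29090976 to 29100727), which encodes the cyclin-dependent kinase inhibitor p21, had 2287 and 2284 in IAA libraries and 1698 and 1956 in untreated libraries. The untreated libraries differed from each other more than the IAA ones, and both lay below. Cdkn1a averaged 2285.5 ± 2.12 in IAA and 1827 ± 182 in untreated libraries (SD, n = 2 each), a log2 change of 0.33 (SE 0.05; limma adjusted p = 7.86e-05). Without either untreated library it ranged from 0.22 to 0.43. Sertad1 (chromosome 7, 27486910 to 27490316), whose product binds CDK4, had 249 and 263 in IAA libraries and 147 and 171 in untreated libraries. It was 1.61-fold higher in IAA, a log2 change of 0.69 (SE 0.11; limma adjusted p = 5.69e-05), the widest rise among the 29.

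Ccng1 (ENSMUSG00000020326, chromosome 11, 40748552 to 40755311), the cyclin G1 gene and the member of highest level, had 4402 and 4347 in IAA libraries and 4957 and 5074 in untreated libraries. It was lower by a small amount, -0.20 on the log2 scale (SE 0.04; limma adjusted p = 0.00019). Under median-of-ratios scaling the difference was -0.10 (adjusted p = 0.018). Cdkn1a and Ccng1, the members with paired half-sites in their windows, thus stood in opposite directions. Cdkn1a over Ccng1 was 0.520 and 0.525 in IAA libraries and 0.343 and 0.385 in untreated libraries. Zmat3 (chromosome 3, 32334792 to 32366014), an RNA-binding zinc finger protein, had 2136 and 2006 in IAA libraries and 2667 and 2640 in untreated libraries (-0.36, SE 0.04; limma adjusted p = 2.69e-06). Cdkn1a over Zmat3 was 1.07 and 1.14 in IAA libraries and 0.637 and 0.741 in untreated libraries. Gadd45a, a stress-induced protein that binds p21 and PCNA, was read low, with 67 and 60 in IAA libraries and 89 and 83 in untreated libraries. Exons of Gadd45a share 19.1% of their length with E230016M11Rik on the other strand. The fall of Gadd45a by -0.43 (SE 0.17) had a limma adjusted p of 0.049998, just under the threshold. It was lost under median-of-ratios scaling (-0.32, adjusted p = 0.144), in voom (adjusted p = 0.058), with a pseudocount of 5 (adjusted p = 0.0501), with the replicate block (adjusted p = 0.0561) and without any of the 4 libraries (adjusted p from 0.0641 to 0.236, unrounded values).

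The polo-like kinases Plk2 and Plk3 were not called. Plk2 had 290 and 285 in IAA libraries and 273 and 266 in untreated libraries (0.09, SE 0.09). Plk3 had 150 and 139 in IAA libraries and 116 and 162 in untreated libraries, with the groups overlapping.

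Of the DNA repair and nucleotide supply targets, 1 of 3 was lower and none higher, beside 28.9% and 11.1% of all genes tested. The 1 call was unsteady. Rrm2b, the p53-inducible small subunit of ribonucleotide reductase, had 292 and 247 in IAA libraries and 303 and 347 in untreated libraries (-0.27, SE 0.10; limma adjusted p = 0.0377). With unrounded values it was not called without IAA replicate 2 (-0.15, adjusted p = 0.338) or without untreated replicate 2 (-0.17, adjusted p = 0.25), nor with median-of-ratios factors (-0.17, adjusted p = 0.143). Polk, the translesion DNA polymerase kappa, had 528 and 507 in IAA libraries and 553 and 579 in untreated libraries (-0.13, SE 0.07; limma adjusted p = 0.151). Ddb2, the subunit that recognises ultraviolet damage, had 141 and 145 in IAA libraries and 141 and 131 in untreated libraries. Exons of Ddb2 share 23.8% of their length with Acp2 on the other strand, and the strand setting is not given in the sources used here.

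In the cell death group 1 of 10 tested members was higher and 2 were lower, beside 11.1% and 28.9% of all genes tested. The balance turned with median-of-ratios factors, to 3 higher and 1 lower, beside 20.4% and 20.5%. Apaf1 (ENSMUSG00000019979, chromosome 10, 90989311 to 91082770), the scaffold of the apoptosome, had 624 and 638 in IAA libraries and 852 and 826 in untreated libraries. It averaged 631 ± 9.90 in IAA and 839 ± 18.4 in untreated libraries (SD, n = 2 each), a log2 change of -0.41 (SE 0.06; limma adjusted p = 2.56e-05). Trp53inp1, which promotes p53 phosphorylation and autophagy, had 3120 and 2988 in IAA libraries and 3382 and 3444 in untreated libraries (-0.16, SE 0.04; limma adjusted p = 0.00321). That call was lost under median-of-ratios scaling (adjusted p = 0.216), in the authors' deposited table (adjusted p = 0.182) and without IAA replicate 2 (adjusted p = 0.0675, unrounded values). Tnfrsf10b, a TRAIL death receptor, had 551 and 538 in IAA libraries and 468 and 493 in untreated libraries (0.18, SE 0.07; limma adjusted p = 0.049). Under median-of-ratios scaling it was 0.28. The call was lost with the replicate block (adjusted p = 0.0624), without IAA replicate 1 (adjusted p = 0.199), without IAA replicate 2 (adjusted p = 0.107) and without untreated replicate 1 (adjusted p = 0.208), the last 3 with unrounded values. Tnfrsf10b shares a stretch of 405 bases at 97.5% identity with the pseudogene Gm15574, whose mean count was 0.83. It shares stretches of 151 to 164 bases at 95.1% to 95.4% identity with Senp1, Usp6nl and Tcirg1. Their mean counts were 996, 414 and 260. Whether reads of these genes were counted for Tnfrsf10b was not tested.

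The remaining death genes were not called. Fas, the other death receptor of the list, was read at 1 and 1 in IAA libraries and 0 and 1 in untreated libraries and was not tested. Eda2r, the ectodysplasin A2 receptor on the X chromosome, had 816 and 773 in IAA libraries and 799 and 857 in untreated libraries. The groups overlapped. Pidd1, the scaffold that activates caspase 2, had 479 and 473 in IAA libraries and 549 and 509 in untreated libraries (-0.15, SE 0.07; limma adjusted p = 0.105). Ei24, an endoplasmic reticulum membrane protein, had 1986 and 1821 in IAA libraries and 1878 and 1936 in untreated libraries, a log2 fold change near 0 (-0.004, SE 0.05). Aen, an exonuclease of apoptotic cells, had 861 and 808 in IAA libraries and 764 and 837 in untreated libraries. Phlda3, an inhibitor of Akt, had 803 and 715 in IAA libraries and 688 and 739 in untreated libraries. Both overlapped between groups. Perp, a tetraspan protein of desmosomes, had 79 and 57 in IAA libraries and 65 and 75 in untreated libraries. Triap1, a small mitochondrial protein that protects against apoptosis, had 267 and 220 in IAA libraries and 272 and 274 in untreated libraries (-0.17, SE 0.10; limma adjusted p = 0.201). Without IAA replicate 1 it was called lower (-0.31, adjusted p = 0.0484, unrounded values).

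Of the 3 targets of metabolism and stress, 1 was higher and 1 lower, beside 11.1% and 28.9% of all genes tested. With median-of-ratios factors 1 was higher and 1 lower, beside 20.4% and 20.5%. Tigar (ENSMUSG00000038028, chromosome 6, 127085116 to 127109557), a fructose bisphosphatase that lowers glycolytic flux, had 1655 and 1656 in IAA libraries and 1281 and 1369 in untreated libraries. It was 1.25-fold higher in IAA, a log2 change of 0.32 (SE 0.05; limma adjusted p = 4.09e-05). Ddit4l (chromosome 3, 137621612 to 137628333), an inhibitor of mTORC1 also called Redd2, had 43 and 38 in IAA libraries and 88 and 87 in untreated libraries. It was 0.46-fold as high in IAA, a log2 change of -1.10 (SE 0.19; limma adjusted p = 0.000115), the steepest fall among the 29. In the authors' deposited table its adjusted p was 0.0797. Sesn1, a sestrin that restrains mTORC1, had 255 and 255 in IAA libraries and 302 and 278 in untreated libraries (-0.18, SE 0.09; limma adjusted p = 0.125).

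Levels between members can be compared per kilobase of merged exon. On that scale Ccng1 led with 1246 normalised counts per kilobase in IAA and 1428 in untreated libraries. Trp53 followed with 730 in IAA and 804 in untreated libraries, and Cdkn1a with 643 in IAA and 514 in untreated libraries. In IAA libraries Phlda3, Trp53inp1, Tigar and Ei24 came next. Phlda3 had 487 in IAA and 458 in untreated libraries, and Trp53inp1 had 472 in IAA and 527 in untreated libraries. Tigar had 453 in IAA and 362 in untreated libraries, and Ei24 had 391 in IAA and 392 in untreated libraries. The order differed in untreated libraries, where Trp53inp1 stood above Cdkn1a and Ei24 above Tigar. Ddit4l (13.9 in IAA and 30.0 in untreated libraries) and Fas (0.485 in IAA and 0.242 in untreated libraries) were lowest. Members called higher spanned 3.41 to 24.4 kb of genome with a median of 16.9 kb, those called lower 2.36 to 93.5 kb with a median of 17.9 kb, and those not called 2.35 to 98.5 kb with a median of 15.4 kb. Of the 13 members with a p53 half-site in a window, 2 were higher and 4 lower. Of the 10 tested members with a window and no half-site, 2 were higher and 2 lower. With median-of-ratios factors the balance in the 13 turned, to 4 higher and 2 lower, and the 10 had 3 higher and 2 lower. Over all genes tested 11.1% were higher and 28.9% lower, or 20.4% and 20.5% under that scaling.

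Other genes of the pathway were read from lists that leave out the members. Their counts stand beside 11.1% higher and 28.9% lower over all genes tested, or 20.4% and 20.5% with median-of-ratios factors. These shares of all genes are not matched for level. Among upstream kinases and damage sensors, 3 of 24 were higher (12.5%) and 13 lower (54.2%), with a median log2 fold change of -0.24 against -0.11 over all genes tested. Atr, the kinase that answers replication stress, had 610 and 606 in IAA libraries and 1205 and 1074 in untreated libraries (-0.90, SE 0.06; limma adjusted p = 2.56e-09). Mdc1, a scaffold at DNA breaks, had 1961 and 1958 in IAA libraries and 3025 and 2960 in untreated libraries (-0.61, SE 0.04; limma adjusted p = 1.65e-09). Both genes lay well below in each IAA library. With median-of-ratios factors the list had 9 higher and 12 lower.

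Cofactors and modifiers of p53 had 7 of 30 higher (23.3%) and 12 lower (40%), beside 11.1% and 28.9% of all genes tested. With median-of-ratios factors 8 were higher and 9 lower, beside 20.4% and 20.5%. Their median was -0.12, against -0.11 over all genes tested. Sirt1, a deacetylase that acts on p53, had 1552 and 1540 in IAA libraries and 1056 and 1070 in untreated libraries (0.54, SE 0.05; limma adjusted p = 8.38e-08). Ppp1r13l, which encodes the p53 inhibitor iASPP, had 182 and 206 in IAA libraries and 281 and 308 in untreated libraries (-0.60, SE 0.10; limma adjusted p = 0.000107). Both were named for the size of their change, in a list with calls in both directions. Of the p53 relatives, Trp73 was tested and not called, and Trp63 was read at 3 in each library.

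Further direct targets had 8 of 56 higher (14.3%) and 20 lower (35.7%), beside 11.1% and 28.9% of all genes tested. The balance turned to 13 higher and 11 lower with median-of-ratios factors, beside 20.4% and 20.5%. Their median was -0.12, near the -0.11 of all genes tested. Rhob, a small GTPase, had 1090 and 1046 in IAA libraries and 640 and 610 in untreated libraries (0.77, SE 0.06; limma adjusted p = 8.07e-09). Trp53i11 had 173 and 171 in IAA libraries and 303 and 289 in untreated libraries (-0.78, SE 0.10; limma adjusted p = 3.93e-06). DREAM complex subunits and the cell cycle genes that this complex represses downstream of p21 had 5 of 39 higher (12.8%) and 20 lower (51.3%), beside 11.1% and 28.9% of all genes tested. Under median-of-ratios scaling they had 10 higher and 13 lower, beside 20.4% and 20.5%. Their median, too, was -0.12, near that of all genes tested. Among them E2f2, a cell cycle transcription factor, had 124 and 132 in IAA libraries and 184 and 216 in untreated libraries (-0.64, SE 0.12; limma adjusted p = 0.000364). Aurkb, a mitotic kinase, had 863 and 849 in IAA libraries and 1253 and 1206 in untreated libraries (-0.52, SE 0.05; limma adjusted p = 3.6e-07). Nanog, which p53 can repress, had 12264 and 12082 in IAA libraries and 9683 and 9641 in untreated libraries (0.33, SE 0.03; limma adjusted p = 4.38e-08).

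**Figure D5:**
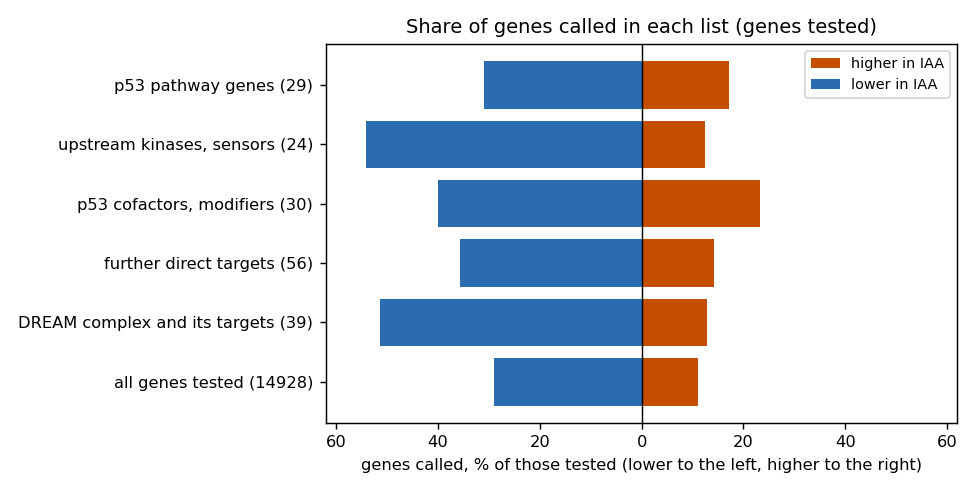
Share of tested genes (%) called lower (blue, to the left) and higher (orange, to the right) in IAA, for the 29 p53 pathway genes, 4 further lists of the pathway and all 14928 genes tested. The upstream kinases and sensors reach 54.2% lower and the pathway genes 31.0%, beside 28.9% for all genes tested.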

How the data were processed

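Poly(A) RNA sequencing of 2 IAA and 2 untreated libraries was used, grouped by sample title. Per the submitters' processing notes, the tools were DESeq2, featureCounts, STAR, Bowtie2, SAMtools, deepTools and cutadapt 1.18, and the builds dm6 and mm10, without roles. Neither annotation nor strandedness is given there. The library values deposited by the authors are scores here: counts of reads, scaled by a library factor and then rounded (normalised read counts). The deposited mean is a signal, the unrounded mean of the 4 libraries. The deposited log2 fold changes, statistic scores and p-values come from the authors' DESeq2 table, per the file headers.

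Rows with a single read gave factors of 0.98 and 0.95 (IAA) and 0.88 and 0.87 (untreated), and whole reads followed for 100% of rows (tolerance 0.001 on the mean). Whether these factors come from the Drosophila spike-in is not stated. Median-of-ratios factors were 1.04 and 0.994 (IAA) and 0.988 and 0.992 (untreated). Genes with a mean of at least 10 were fitted as log2(value + 1) in limma 3.58.1 (R 4.3.3; empirical Bayes with trend), and p-values were adjusted by Benjamini-Hochberg over all 14928 genes. Fold changes on this scale understate those of low genes. The fit was also run on simulated counts in which few genes changed. In these data 39.9% of genes tested were called, so that run does not show how sound the calls are. Because the library values are rounded and scaled, the count-based alternative was voom on the recovered reads, which called 1754 genes higher and 4479 lower.

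The members and lists were chosen with earlier results of these data known. Named genes were all members, Polr2c, the top markers, and per pathway list the 2 called genes of largest change with a mean of at least 100. Trp73, Trp63, Col1a1, Col3a1, Utf1, Lin28a, Klf4, Klf2 and the ratio pairs were named after their values were seen. These lists held 24 (upstream), 30 (cofactors), 61 (targets) and 40 (DREAM) symbols. Alternatives were other scalings, pseudocounts, filters, voom, the authors' p-values, a replicate block and leaving out each library, with unrounded values added after seeing the data. Coordinates are those of GENCODE M21 (GRCm38, also called mm10). Exons of 8 members overlap another gene on the opposite strand. As strandedness is not given, whether reads were told apart there is not known.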

Additional observations from a re-analysis of the deposited data

How the results depend on the processing

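The count of all genes lower in IAA was 638 with no filter on low values and 1100 in the authors' deposited table, against 4312, and of genes higher 3039 with median-of-ratios factors, 179 with no filter and 284 in the authors' deposited table, against 1650. Members lower were 5, 3 and 4 with median-of-ratios factors, no filter and the authors' deposited table, and members higher 8, 0 and 3. No member of the DNA repair group was called with median-of-ratios factors (0), beside 40.8% of all genes tested. Leaving out 1 library gave 0 to 3939 genes lower, 0 to 1608 higher, 0 to 8 members lower and 0 to 6 higher. By group it gave 0 to 4 (regulators), 0 to 4 (cell cycle), 0 to 1 (DNA repair), 0 to 3 (cell death) and 0 to 2 (metabolism) members, and 0 to 16, 0 to 20, 0 to 26 and 0 to 21 genes for the upstream, cofactor, target and DREAM lists. The counts of 0 come from limma on rounded values, in which 2.49% of genes are tied between IAA libraries and 2.42% between untreated libraries, so that the prior degrees of freedom were 1.59 without IAA replicate 1, against 18.03 with all 4 libraries. In those fits 4734 to 5070 genes and 9 to 15 members had an unadjusted p under 0.05, and with unrounded values 6 to 8 members were lower and 3 to 6 higher. With no filter, 14 members had an unadjusted p under 0.05.

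With median-of-ratios factors the log2 fold change turned to 0.0967 for Ei24, 0.0424 for Perp and 0.0411 for Eda2r. Without 1 library it ran from -0.0664 to 0.0587 for Ei24 (0.0177 and 0.0585 where it turned, unrounded values), -0.00504 to 0.13 for Aen (-0.0041 unrounded), -0.165 to 0.31 for Plk3 (-0.166 unrounded), -0.29 to 0.18 for Perp (0.0447 and 0.173 unrounded) and -0.0226 to 0.23 for Rchy1 (-0.0238 unrounded). None of these was called there, and the cause was not tested. Same-numbered libraries did not deviate together (r = 0.0015 over 14928 genes, and r = -0.065 over those with a mean of at least 100). With 2 libraries per group this cannot decide whether equal numbers mark a shared culture, which the labels do not say. With the replicate block 4311 genes were lower and 1647 higher, with 8 members lower and 4 higher. A change of Fas, at 0 or 1 read in each library, was not detectable at this depth.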
